A study of Rattus norvegicus with 16 samples.

Results

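The interleukin-1 (IL-1), tumor necrosis factor (TNF) and interleukin-10 (IL-10) system was followed in rat liver as 10 genes, chosen by name, of the 17055 gene symbols that were counted. The ligands were Il1a, Il1b, Tnf and Il10, the secreted receptor antagonist was Il1rn, and the receptors were Il1r1, Il1r2, Il1rap, Tnfrsf1a and Tnfrsf1b. Each of the 10 genes had reads in each of the 16 libraries.

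IL-1α and IL-1β bind the type 1 receptor Il1r1, which then recruits the accessory protein Il1rap to start NF-κB signalling. The antagonist Il1rn occupies Il1r1 without recruiting Il1rap, and Il1r2 is a decoy receptor that binds IL-1 without signalling. TNF acts through the widely expressed Tnfrsf1a and through Tnfrsf1b, which is found mostly on immune and endothelial cells, and IL-10 restrains macrophage cytokine output through STAT3. In liver, Kupffer cells and recruited myeloid cells are well known sources of IL-1β and TNF, and hepatocytes secrete Il1rn in the acute phase response.

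The livers came from 48 male Sprague-Dawley rats aged 10 weeks, all breathing oxygen and taken 8 h after the abdomen was opened. Isoflurane-sepsis rats had cecal ligation and puncture (CLP, which lets gut bacteria into the abdomen) under isoflurane after isoflurane induction, and Isoflurane-control rats had the same opening without CLP. Propofol-sepsis and Propofol-control rats were treated likewise under propofol, after induction with ketamine and xylazine, so the induction drugs and the maintenance anesthetic cannot be told apart. Each group had 4 libraries, each of 3 pooled rats, so that the spread reported here was between pools. Library numbers run from 1 to 4 for Isoflurane-sepsis, from 5 to 8 for Isoflurane-control, from 9 to 12 for Propofol-sepsis and from 13 to 16 for Propofol-control. The files of the isoflurane and propofol libraries carried different name prefixes, and whatever these mark cannot be told apart from the anesthetic either.

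Each library had between 14199422 and 49937173 reads on genes, with a median of 19735458. Levels are given as CPM, the counts scaled to a common library total, after TMM scaling over all 16 libraries, with the SD over the 4 libraries of a group. The 10 hepatocyte markers summed to between 119798 and 164760 CPM in every library, as the tissue label states, and the groups differed within that range: 155947 to 164760 CPM in Isoflurane-control, 139444 to 154741 in Isoflurane-sepsis, 119798 to 128719 in Propofol-control and 120144 to 126251 CPM in Propofol-sepsis livers. One Propofol-sepsis library, library 10, stood apart: 14 brain markers summed to 417 CPM in it, against 7.53 to 29.4 CPM in the other 15 libraries. Without library 10, 8 of the 10 genes were called between septic and control livers under propofol, the same number as with it, and values without it are given below where a call or direction differed.

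The sequences just before the gene starts are shown for the 4 genes with an entry that were called higher in septic livers under both anesthetics, and for Il1r1 as a receptor that was not. They are RefSeq windows of the GRCr8 build, which is not the build of the reads. Each run is 100 bases of the gene's strand ending at the base before the start, and capitals mark TATAA on either strand. The starts used for Il1rn and Il1r1 lie inside the span that RefSeq gives the gene.
Il1a (chr3:136990018-136990117, minus strand): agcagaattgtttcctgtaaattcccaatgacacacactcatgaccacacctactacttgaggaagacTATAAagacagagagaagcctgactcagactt
Il1b (chr3:137036582-137036681, minus strand): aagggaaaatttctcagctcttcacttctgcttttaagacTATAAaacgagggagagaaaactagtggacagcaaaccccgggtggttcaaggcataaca
Il1rn (chr3:27520222-27520321, plus strand): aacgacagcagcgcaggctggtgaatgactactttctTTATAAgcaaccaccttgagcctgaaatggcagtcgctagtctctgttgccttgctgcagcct
Tnf (chr20:3626585-3626684, plus strand): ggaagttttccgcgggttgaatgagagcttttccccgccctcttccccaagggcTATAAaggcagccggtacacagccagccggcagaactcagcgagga
Il1r1 (chr9:50034283-50034382, plus strand): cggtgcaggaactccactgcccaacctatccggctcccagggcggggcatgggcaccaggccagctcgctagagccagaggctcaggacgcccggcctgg

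RefSeq promoter entries were found for 8 of the 10 genes, and not for Il1r2 or Il10. Searched on both strands over 250 bases before the start, TATAA was found in Il1a, Il1b, Il1rn and Tnf and in none of the 4 receptor genes with an entry, against 23.97% of all 33469 promoter windows. On the gene's own strand its nearest match began 32 bases before the start of Il1a, 60 before Il1b, 62 before Il1rn and 46 before Tnf. The letters GGGNNNNNCC, a loose form of the NF-κB site, were found in 5 of the 8 genes (Il1rn, Il1r1, Il1rap, Tnf and Tnfrsf1b) and in 42.3% of all windows. The letters TTGCNNAA, a loose form of the C/EBP site, were found in 0 of 8 and in 9.22% of all windows. The GGGNNNNNCC matches overlapped one another in Il1rap, Tnf and Tnfrsf1b, and a pair of TATAA matches on opposite strands overlapped in Il1rn. These matches describe the letters of the window only.

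Il1b, the main secreted form of IL-1, and Tnf had the largest increases of the system under isoflurane, and Il10 had the largest under propofol. The antagonist Il1rn and the decoy receptor Il1r2 were also higher in septic livers under both anesthetics, whereas the TNF receptors were never called higher. Of the 10 genes, 7 were called higher and 1 lower under isoflurane, where 25.7% of all 10361 tested genes were called higher and 24.4% lower. Under propofol 6 were called higher and 2 lower, against 20.4% and 21.7% of 10348 tested genes. These counts include Tnf under isoflurane and Il10 under propofol, which passed the filter on low counts only through their septic libraries. Those calls are descriptions. For Il10 under isoflurane and Tnf under propofol, only 3 control libraries reached the count limit of the filter. The median log2 fold change over the 10 genes was 1.23 under each anesthetic, and that of all tested genes was 0.01 under isoflurane and -0.0016 under propofol. A call is an adjusted p below 0.05 by edgeR's quasi-likelihood test with Benjamini-Hochberg adjustment over all tested genes, the method behind every adjusted p below unless another is named.

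**Figure D1:**
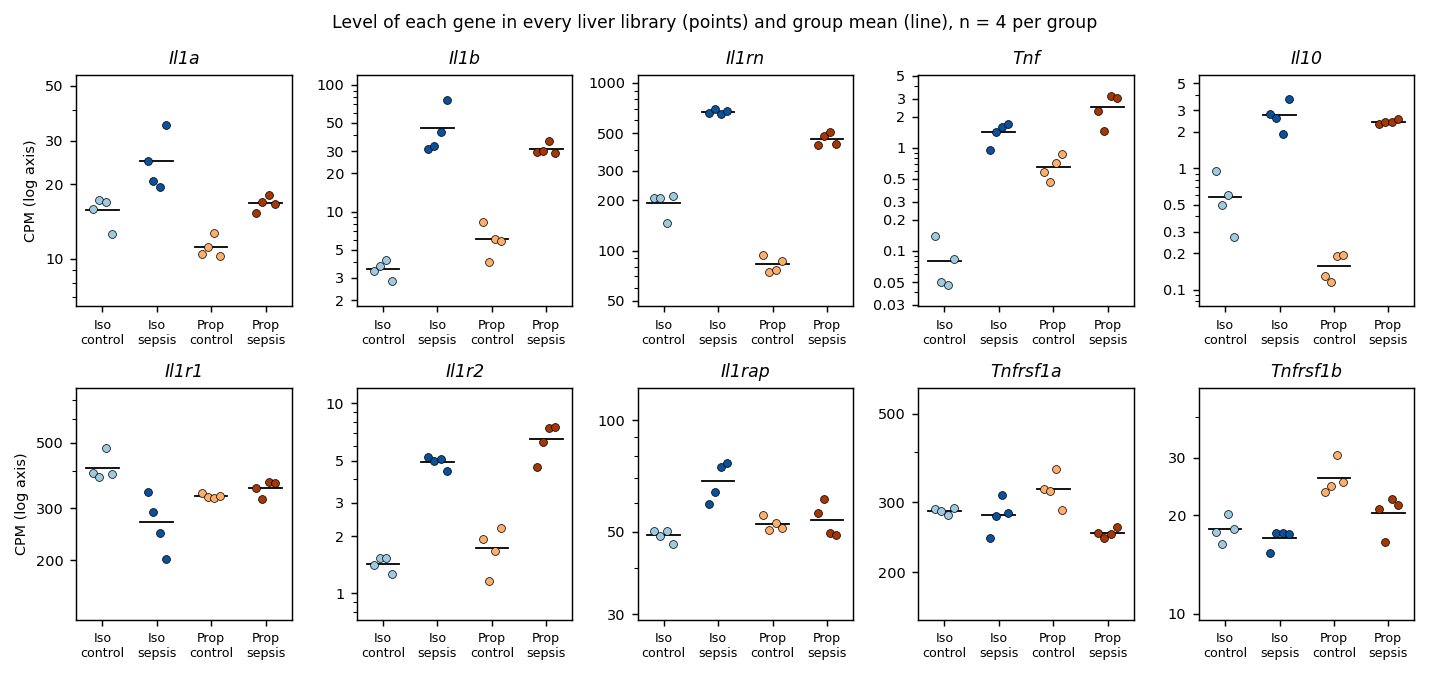
Level of each of the 10 genes in CPM on log axes (a separate scale in each panel) in each library (points), by group, with the group mean as a line. The septic groups lie wholly above their own control groups for Il1a, Il1b, Il1rn, Il1r2, Tnf and Il10.

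Il1b stood at 3.39, 3.71, 4.14 and 2.85 CPM in the Isoflurane-control libraries and at 30.9, 32.7, 42.2 and 75.3 CPM in the Isoflurane-sepsis libraries. In Propofol-control livers it was 8.24, 4.02, 6.05 and 5.86 CPM and in Propofol-sepsis livers 29.4, 29.9, 35.7 and 28.8 CPM. Sepsis and control did not overlap under either anesthetic, and library 4 held the highest level of all 16. Il1b was 13.01-fold higher in septic livers under isoflurane (log2 fold change 3.70, SE 0.31, adjusted p = 7.28e-05) and 5.12-fold higher under propofol (2.36, SE 0.17, adjusted p = 2.52e-05). Without library 4 the log2 fold change under isoflurane was 3.35.

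Il1a, which acts as an alarm signal released from damaged cells, moved less than Il1b. In Isoflurane-control livers it was 15.9, 17.2, 17.0 and 12.6 CPM, and in Isoflurane-sepsis livers 24.9, 20.7, 19.5 and 34.7 CPM. Its Propofol-control levels were 10.5, 11.1, 12.8 and 10.3 CPM and its Propofol-sepsis levels 15.3, 17.0, 18.0 and 16.7 CPM. The septic libraries again lay above their own controls, but the Propofol-sepsis range overlapped the Isoflurane-control range. The log2 fold change was 0.67 under isoflurane (SE 0.18, adjusted p = 0.0146) and 0.58 under propofol (SE 0.09, adjusted p = 7.93e-04). A gene model without a symbol of its own, LOC120101660, overlaps Il1a in RefSeq, and how the counting treated strand is not given in the sources used here.

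Il1rn was the only one of the 10 genes whose 4 groups were all separate from their neighbours in level. Its levels were 94.1, 74.2, 76.8 and 86.9 CPM in Propofol-control livers and 207, 206, 145 and 210 CPM in Isoflurane-control livers. Septic livers reached 427, 483, 511 and 430 CPM under propofol and 665, 702, 650 and 677 CPM under isoflurane. The increase was 3.51-fold under isoflurane (log2 1.81, SE 0.12, adjusted p = 3.15e-05) and 5.56-fold under propofol (log2 2.47, SE 0.10, adjusted p = 1.52e-06). Il36b overlaps Il1rn in RefSeq and had few reads here; it was called lower under isoflurane (log2 fold change -0.57, adjusted p = 0.0447).

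Tnf was the scarcest transcript of the system in Isoflurane-control livers, with 3, 1, 1 and 4 reads, that is 0.0801 ± 0.0440 CPM (SD, n = 4). The Isoflurane-sepsis libraries had 19, 22, 31 and 28 reads (1.42 ± 0.332 CPM). Propofol-control livers had 9, 8, 15 and 18 reads (0.656 ± 0.172 CPM) and Propofol-sepsis livers 40, 30, 60 and 101 reads (2.50 ± 0.808 CPM). All 8 septic libraries lay above all 8 control libraries in CPM, and the controls of the anesthetics did not overlap. Under isoflurane the summed reads gave a sepsis-to-control ratio of 17.3, with a 95% counting interval of 8.74 to 38.9, and the fitted log2 fold change was 4.04 (SE 0.36, adjusted p = 9.35e-05). Under propofol the ratio was 3.84 (2.81 to 5.32) and the log2 fold change 1.90 (SE 0.30, adjusted p = 9.61e-04). Counting intervals cover counting error only. Under isoflurane no control library reached the count limit of the filter, so Tnf was tested there only because of its septic level, and its call is given as a description.

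Il10 was at 2, 2, 4 and 4 reads in the Propofol-control libraries and at 41, 49, 45 and 84 reads in the Propofol-sepsis libraries. Isoflurane-control livers had 20, 10, 13 and 13 reads and Isoflurane-sepsis livers 56, 40, 37 and 61 reads. In CPM the septic groups, 2.74 ± 0.731 under isoflurane and 2.42 ± 0.0999 under propofol, overlapped each other and lay above both control groups, 0.578 ± 0.279 and 0.157 ± 0.0399. The septic ranges of Il10 thus overlapped while its control ranges did not. The ratio of summed reads was 5.38 under isoflurane (counting interval 3.98 to 7.38; fitted log2 fold change 2.32, SE 0.36, adjusted p = 9.62e-04). It was 15.1 under propofol (8.50 to 29.8; fitted log2 fold change 3.86, SE 0.23, adjusted p = 8.02e-06). Il10 passed the filter under propofol only through its septic libraries, and that call is likewise a description.

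Il1r1, the signalling IL-1 receptor, was the gene of the system that fell under isoflurane. Its Isoflurane-control levels were 395, 382, 479 and 390 CPM and its Isoflurane-sepsis levels 340, 291, 246 and 201 CPM, with no overlap. Library 4, which had the most Il1b, had the least Il1r1. Under propofol the controls were 337, 328, 325 and 329 CPM and the septic livers 352, 321, 369 and 364 CPM, which overlapped. The log2 fold change was -0.61 under isoflurane (SE 0.15, adjusted p = 0.0103). Under propofol it was 0.09 (adjusted p = 0.272), with a 95% interval from -0.05 to 0.22.

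The decoy receptor Il1r2 rose under both anesthetics. Its control levels were 1.41, 1.54, 1.53 and 1.27 CPM under isoflurane and 1.93, 1.17, 1.67 and 2.21 CPM under propofol. Septic levels were 5.19, 4.96, 5.08 and 4.41 CPM under isoflurane and 4.63, 6.29, 7.43 and 7.54 CPM under propofol. Every septic library exceeded every control library. The change was 3.45-fold under isoflurane (log2 1.79, SE 0.13, adjusted p = 4.01e-05) and 3.69-fold under propofol (log2 1.88, SE 0.22, adjusted p = 2.22e-04), and the difference between the responses was -0.11 on the log2 scale, with a 95% interval from -0.67 to 0.45.

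Il1rap, the shared accessory chain, was called only under isoflurane. It went from 50.4, 48.6, 50.4 and 46.4 CPM in Isoflurane-control livers to 59.4, 64.2, 74.9 and 76.5 CPM in Isoflurane-sepsis livers (log2 fold change 0.49, SE 0.10, adjusted p = 0.00316). Propofol-control livers had 55.6, 50.5, 52.8 and 51.2 CPM and Propofol-sepsis livers 56.1, 61.3, 49.5 and 49.0 CPM. The propofol groups overlapped, with a log2 fold change of 0.03 and a 95% interval from -0.15 to 0.21 (adjusted p = 0.762). Library 10 was the highest of the Propofol-sepsis group, and without it the value was -0.03. LOC120095686 overlaps Il1rap in RefSeq.

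Both TNF receptors were called lower under propofol and not under isoflurane, though the difference between these responses was not called for either (0.33 on the log2 scale, adjusted p = 0.0988, for Tnfrsf1a, and 0.27, adjusted p = 0.287, for Tnfrsf1b). Tnfrsf1a, the main receptor on hepatocytes, was 323, 319, 363 and 287 CPM in Propofol-control and 251, 243, 250 and 259 CPM in Propofol-sepsis livers (log2 fold change -0.37, SE 0.07, adjusted p = 0.00293). Under isoflurane it was 288, 285, 278 and 290 CPM in control and 243, 277, 313 and 282 CPM in septic livers, with a 95% interval of the log2 fold change from -0.23 to 0.18. The isoflurane libraries of this gene overlapped and the propofol libraries did not.

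Tnfrsf1b went from 23.6, 24.6, 30.6 and 25.2 CPM in Propofol-control to 20.9, 16.6, 22.4 and 21.5 CPM in Propofol-sepsis livers (log2 fold change -0.36, SE 0.11, adjusted p = 0.0266). That call was lost without library 15 (adjusted p = 0.0679) or library 16 (adjusted p = 0.05003), both Propofol-control; without library 10 it held (log2 fold change -0.27, adjusted p = 0.0386). Isoflurane-control livers had 17.8, 16.4, 20.2 and 18.1 CPM and Isoflurane-sepsis livers 15.4, 17.7, 17.6 and 17.6 CPM, with a 95% interval of the log2 fold change from -0.29 to 0.12. LOC103692519 overlaps Tnfrsf1b in RefSeq.

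**Figure D2:**
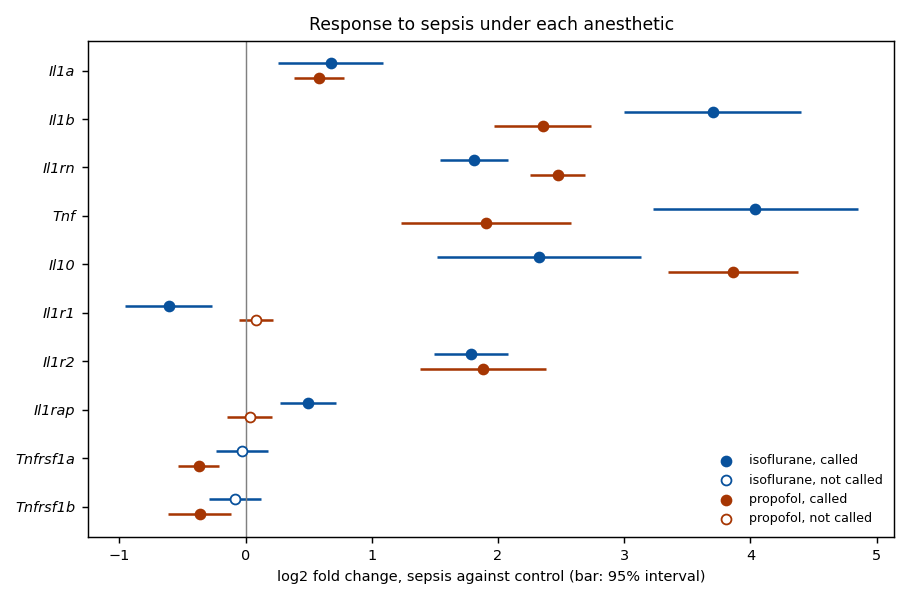
Log2 fold change of each gene between septic and control livers, with its 95% interval, under isoflurane (blue) and propofol (brown); filled points were called. The points for Tnf are at 4.04 and 1.90 and those for Il10 at 2.32 and 3.86, while those for Il1r2 lie at 1.79 and 1.88.

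Whether a response differed between the anesthetics was tested as the interaction of sepsis and anesthetic over all 16 libraries, where 2.72% of 10621 tested genes were called. Of the 10 genes, 3 were called. Tnf responded more under isoflurane, by 2.12 on the log2 scale (SE 0.50, adjusted p = 0.0403). No Isoflurane-control library reached the count limit of the filter for Tnf, so this call is a description. Il1rn responded less under isoflurane (difference -0.67, SE 0.16, adjusted p = 0.0387). Il1r1 also had a negative difference (-0.70, SE 0.17, adjusted p = 0.0455). It was called lower in septic livers under isoflurane (log2 fold change -0.61) and was not called under propofol (0.09). Il1b had a difference of 1.34 (adjusted p = 0.0623), Il10 of -1.57 (adjusted p = 0.0812), Il1rap of 0.45 (adjusted p = 0.0627), Tnfrsf1a of 0.33 (adjusted p = 0.0988) and Tnfrsf1b of 0.27 (adjusted p = 0.287), all past the limit of the call. The values for Il1a and Il1r2 were 0.09 and -0.11, and the 95% interval for Il1a ran from -0.38 to 0.56.

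These 3 calls lay close to the limit. The call for Il1rn was lost when any of libraries 3, 5, 6, 8, 9, 11, 12, 14 or 15 was left out, with adjusted p between 0.0564 and 0.0846. That for Il1r1 was lost in 13 of the 16 cases, all except libraries 1, 4 and 10, with adjusted p between 0.0594 and 0.0966. That for Tnf was lost in 11 of 16 cases, all except libraries 1, 4, 5, 10 and 11, with adjusted p between 0.0531 and 0.0913. With a library left out, the differences themselves stayed between -0.78 and -0.62 for Il1rn, between -0.83 and -0.58 for Il1r1 and between 1.93 and 2.40 for Tnf; with counts thinned to the smallest library total the difference for Tnf was 3.99. Il1b was called without library 1 (1.49, adjusted p = 0.0138) or library 4 (0.98, adjusted p = 0.0456), Il1rap without library 1 (0.52, adjusted p = 0.0111) or library 10 (0.52, adjusted p = 0.0376), and Tnfrsf1a without library 1 (0.39, adjusted p = 0.0198). With no filter on low counts the calls for Il1r1 (adjusted p = 0.0623) and Tnf (adjusted p = 0.0540) were lost, with thinned counts that for Il1r1 (adjusted p = 0.0511), and with DESeq2 Il1b (adjusted p = 0.00995) and Il1rap (adjusted p = 0.0176) were called as well. Over all tested genes the interaction gave 289 calls. The number was 1615 without library 1, 374 without library 4 and 398 without library 10. It was 850 with DESeq2, 168 with no filter and 193 with thinned counts.

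In control livers, which were operated on and anesthetized but had no CLP, 7 of the 9 tested genes of the system were called between the anesthetics, against 43.3% of all 10314 tested genes. These comparisons use the same libraries as those above and are given beside them, not in addition. Relative to propofol, Isoflurane-control livers had more Il1rn (log2 fold change 1.21, SE 0.12, adjusted p = 3.54e-05), Il1a (0.48, adjusted p = 0.00659) and Il1r1 (0.32, adjusted p = 0.00479). They had less Tnf (-2.96, SE 0.39, adjusted p = 1.94e-04), Il1b (-0.80, adjusted p = 0.00807), Tnfrsf1b (-0.52, adjusted p = 0.00109) and Tnfrsf1a (-0.18, adjusted p = 0.0441). For Il1a, Il1b and Tnfrsf1a the libraries of the groups overlapped in CPM. The call for Tnfrsf1a was lost without any of libraries 5, 6, 7, 8, 13, 14 or 15, with adjusted p between 0.0627 and 0.0945. In a fit of all 16 libraries the calls for Il1b (adjusted p = 0.0501), Il1r1 (adjusted p = 0.0667) and Tnfrsf1a (adjusted p = 0.101) were lost, and with library totals alone that for Il1r1 (adjusted p = 0.0637) was lost and Il1rap was called (-0.25, adjusted p = 0.00457). Tnf passed the filter here only through its Propofol-control libraries, where it was higher, so its call is a description. The Tnf control libraries totalled 9 reads under isoflurane and 50 under propofol, a ratio of 0.121 with a counting interval of 0.0523 to 0.248. Il10 did not pass the filter in this comparison; its control libraries totalled 56 reads under isoflurane and 12 under propofol, a ratio of 3.13 (1.66 to 6.42).

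In septic livers 1 of the 10 genes was called between the anesthetics, against 19.3% of all 10272 tested genes. That gene was Il1rn, which was 1.45-fold higher under isoflurane (log2 0.54, SE 0.08, adjusted p = 0.0101), with no overlap between the groups. Il1a was also separate (19.5 to 34.7 against 15.3 to 18.0 CPM) but was not called (log2 fold change 0.57, adjusted p = 0.0502), and without library 3 it was called. For Il1b the septic groups overlapped, at 45.3 ± 20.6 CPM under isoflurane and 30.9 ± 3.20 CPM under propofol (log2 fold change 0.55, adjusted p = 0.158). Il10 differed by 0.17 on the log2 scale, with a 95% interval from -0.30 to 0.65. Tnf had a log2 fold change of -0.83 (adjusted p = 0.0746); without library 10 it was -1.02 (adjusted p = 0.0255). Without library 10, Il1rap (0.41, adjusted p = 0.0394) and Tnfrsf1b (-0.34, adjusted p = 0.0328) were also called, 4 genes in all. Without library 1, 3 genes were called, among them Il1r1 (-0.52, adjusted p = 0.0244), and without library 3 the number was 2. DESeq2 also called Il1a (adjusted p = 0.0159) and Il1rap (adjusted p = 0.0320), and library totals alone called Il1r1, Il1r2, Tnf and Tnfrsf1b lower under isoflurane beside Il1rn.

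Within a library the reads of an agonist can be set against those of its inhibitor with no scaling between libraries; such a ratio of reads is not a ratio of molecules, since the transcripts differ in length. Per Il1b read there were 35.1 to 73.7 Il1rn reads in Isoflurane-control livers (56.4 ± 16.1, SD, n = 4) and 8.99 to 21.5 in Isoflurane-sepsis livers (16.8 ± 5.97). Under propofol there were 11.4 to 18.5 in control livers (14.4 ± 3.09) and 14.3 to 16.2 in septic livers (15.0 ± 0.816). The Isoflurane-control libraries were thus separate from the other 12, which overlapped. No test was made on these ratios.

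The ratio of decoy to signalling receptor moved the same way under both anesthetics. Reads of Il1r2 per read of Il1r1 ranged from 0.00320 to 0.00402 in Isoflurane-control livers and from 0.0153 to 0.0220 in Isoflurane-sepsis livers. In Propofol-control livers the range was 0.00355 to 0.00672, and in Propofol-sepsis livers 0.0132 to 0.0207. All 8 septic libraries were above all 8 control libraries, and the septic groups overlapped.

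**Figure D3:**
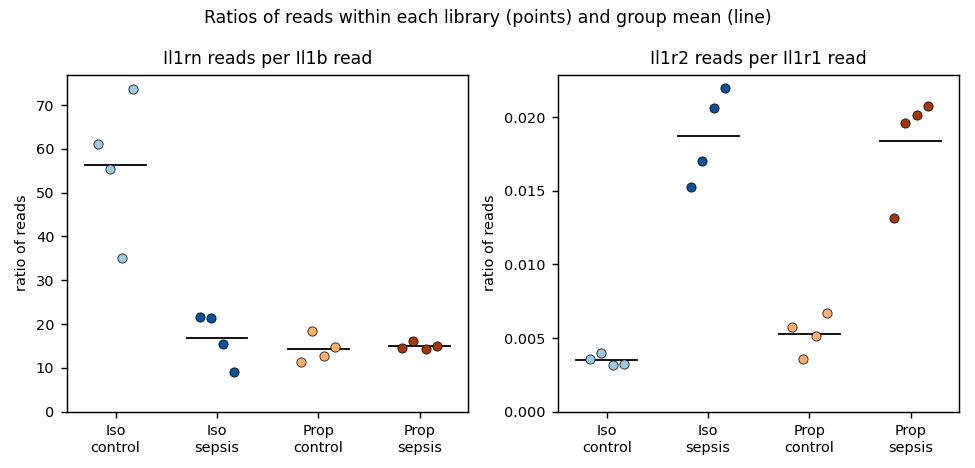
Reads of Il1rn per read of Il1b (left) and of Il1r2 per read of Il1r1 (right) in each library (points), with the group mean as a line, on linear axes from 0. Isoflurane-control livers stand apart on the left, at 35.1 to 73.7, while on the right both septic groups lie above both control groups.

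Other genes of the same pathways were taken from 4 written lists of 74 symbols, of which 65 were counted and 48 tested in each comparison. Of these 48, 20 were called higher and 9 lower under isoflurane, and 19 higher and 8 lower under propofol; their median log2 fold changes were 0.19 and 0.11. Of all tested genes, 25.7% were called higher and 24.4% lower under isoflurane, and 20.4% and 21.7% under propofol, so the pathway genes called lower were no larger a share than among all genes. In the interaction 4 of the 48 were called, against 2.72% of all tested genes. Casp4 (1.04, adjusted p = 0.0249) and Nlrp3 (1.08, adjusted p = 0.0468) responded more under isoflurane, and Cflar responded less (-0.67, adjusted p = 0.0254). Mean Casp4 was 10.7 CPM in control and 19.8 CPM in septic livers under isoflurane, and 32.9 and 29.4 CPM under propofol. Mean Nlrp3 was 1.51 and 3.96 CPM under isoflurane, and 3.02 and 3.67 CPM under propofol. For Cflar the means were 57.1 and 102 CPM, and 31.1 and 87.9 CPM, in the same order. Jak1 (0.46, adjusted p = 0.0220) moved in opposite directions, and both changes were called. Its log2 fold change was 0.24 under isoflurane (adjusted p = 0.0339) and -0.23 under propofol (adjusted p = 0.0110). Casp4 and Nlrp3 act in the inflammasome pathways that activate IL-1β, Jak1 is a kinase of the IL-10 receptor, and Cflar blocks death signalling from the TNF receptor. These 4 are named because the count was small, after their values had been seen. Without library 1 the count was 8, without library 6 it was 0, without library 8 it was 1, and without library 7, 12 or 15 it was 2. The calls over all tested genes moved as well, from 289 of 10621. They were 1615 of 10708 without library 1, 60 of 10703 without library 6 and 65 of 10706 without library 8. Without library 7, 12 or 15 they were 76, 54 and 97.

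Among the 6 tested IL-1 family ligands and receptors outside the 10 genes, 2 were called higher and 3 lower under isoflurane (25.7% and 24.4% of all genes), and 2 higher and 2 lower under propofol (20.4% and 21.7%). The IL-33 receptor Il1rl1 had the largest increase (log2 fold change 2.49 under isoflurane and 2.36 under propofol), followed by Il18bp, which neutralizes IL-18 (1.37 and 1.56). Il33 fell (-1.23 and -0.65), and so did Sigirr, an inhibitory receptor of the family (-1.17 and -0.69). All 4 had adjusted p of 0.0125 or below under both anesthetics. Il1rl1 was scarce in Isoflurane-control livers (0.348 ± 0.0860 CPM, against 2.05 ± 0.474 CPM in Isoflurane-sepsis livers). It passed the filter under isoflurane only through its septic libraries, so that call is a description.

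Of 16 tested genes of IL-1 maturation and signalling, 6 were called higher and 3 lower under isoflurane (25.7% and 24.4% of all genes), and 6 higher and 2 lower under propofol (20.4% and 21.7%). Under isoflurane the inflammasome sensor Nlrp3 (1.37, adjusted p = 9.78e-04) and the inflammatory caspase Casp4 (0.88, adjusted p = 1.93e-04) rose most. Under propofol the largest rises were in Irak3 (0.67, adjusted p = 0.00137), a brake on IL-1 receptor signalling, and Irak2 (0.40, adjusted p = 0.0165), a kinase of that pathway. Gsdmd, whose product forms the pore through which IL-1β leaves cells, fell under both (-1.37 and -1.07), as did Tab1 (-0.65 and -0.55), an adaptor of the TAK1 kinase.

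Of 17 tested genes of TNF release and signalling, 7 were called higher (25.7% of all genes) and 3 lower (24.4%) under isoflurane, and 8 higher (20.4%) and 2 lower (21.7%) under propofol. Rhbdf2, which carries the TNF-releasing protease ADAM17 to the cell surface, had the largest rise under both (2.01 and 1.52). The next was Birc3 under isoflurane (1.51, adjusted p = 8.15e-04), a ubiquitin ligase of the TNF receptor complex, and Map3k8 under propofol (1.50, adjusted p = 0.00102), a kinase needed for TNF production. Casp8, the initiator of death receptor apoptosis, fell under both (-0.70 and -0.68), Tnfaip2 fell under isoflurane (-0.85, adjusted p = 6.53e-04), and Zfp36, which destabilizes Tnf mRNA, fell under propofol (-0.50, adjusted p = 0.00820).

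Of 9 tested genes of the IL-10 family and its signalling, 5 were called higher under isoflurane (25.7% of all genes), and 3 higher (20.4%) and 2 lower (21.7%) under propofol. The transcription factor Nfil3 (1.51 and 0.90) and the feedback inhibitor Socs3 (1.17 and 0.76) rose under both. Under propofol Il4ra fell (-0.66, adjusted p = 1.99e-04), and so did Jak1 (-0.23, adjusted p = 0.0110). Il4ra was counted in this list although it is a receptor chain of another anti-inflammatory cytokine, IL-4.

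**Figure D4:**
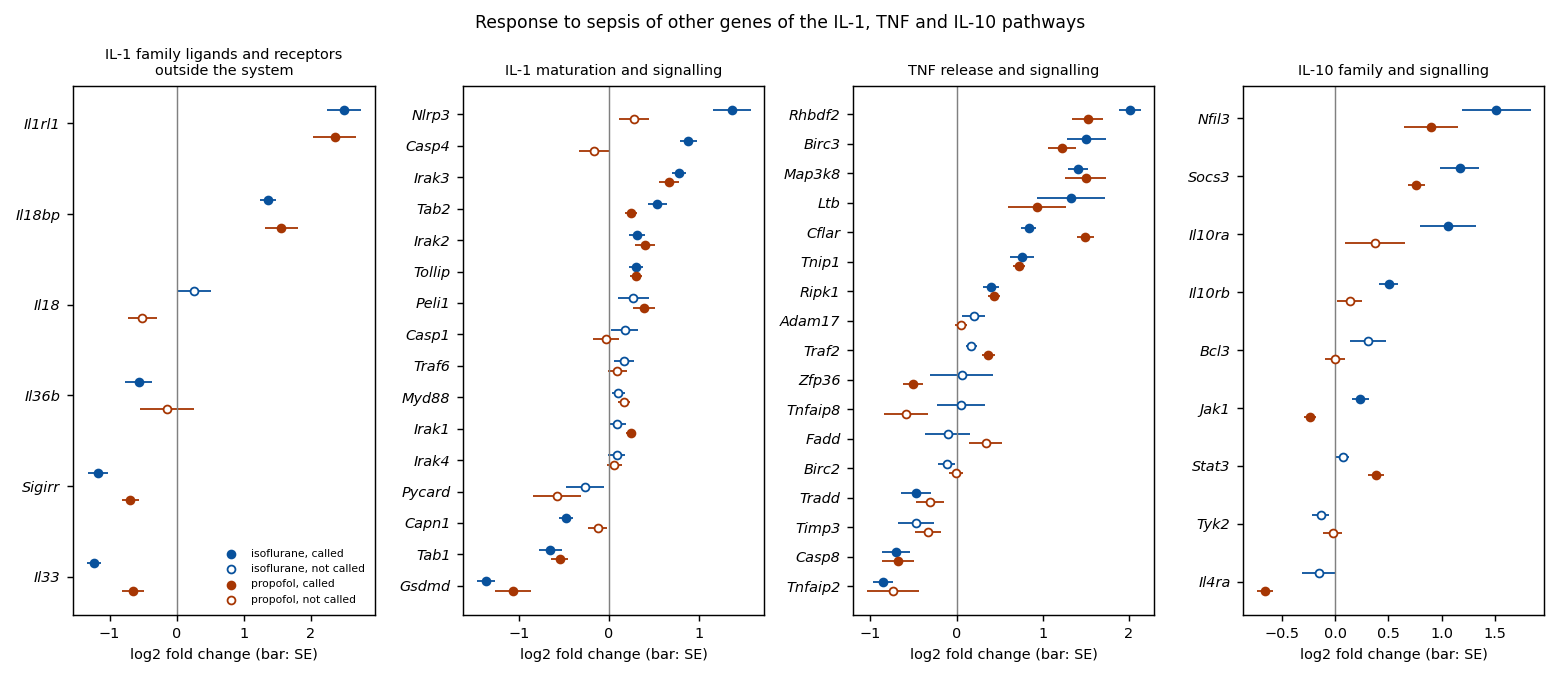
Log2 fold change between septic and control livers of the 48 tested pathway genes in 4 lists, with the SE as a bar, under isoflurane (blue) and propofol (brown); filled points were called. Il1rl1 and Rhbdf2 lie farthest to the right, at 2.49 and 2.01 under isoflurane, and Gsdmd farthest to the left of its list, at -1.37 and -1.07. The call for Il1rl1 under isoflurane is a description.

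The genes whose level pattern over the 16 libraries was most like that of 3 of the genes were found by the root mean square difference of log2 CPM after each gene's own mean was removed, among 8892 genes. Closest to Il1b were Tnfrsf14 (0.31), Cd44 (0.42) and Sod2 (0.42). Closest to Il1rn were Hivep1 (0.21), Pla1a (0.25) and Cxcr7 (0.26), and Hivep1 had group means of 8.82 and 22.4 CPM in propofol and isoflurane controls and 61.4 and 90.6 CPM in the septic livers. Closest to Il1r1 were Prkar2a (0.10), Hook1 (0.11) and Nubp2 (0.12). All 16 libraries enter these values, so the difference between septic and control livers is part of the likeness.

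Neutrophil and monocyte markers summed to a higher level in septic livers under both anesthetics, while the sums of Kupffer cell and macrophage markers overlapped. The summed level of 12 neutrophil and monocyte markers was 19.2 to 22.02 CPM in Isoflurane-control and 39.2 to 126 CPM in Isoflurane-sepsis livers, and 20.0 to 28.4 CPM in Propofol-control and 39.3 to 57.9 CPM in Propofol-sepsis livers. Of the 8 tested, 6 were called higher under isoflurane (25.7% of all genes) and 5 under propofol (20.4%), and Ly6c had no read in any library. The part of these cells in the levels of Il1b, Tnf, Il1r2 and Il10 was not tested, and in bulk liver fewer or more cells of a type cannot be told apart from less or more RNA per cell. The 10 Kupffer cell and macrophage markers summed to 414 to 510 CPM in Isoflurane-control, 471 to 649 in Isoflurane-sepsis, 484 to 546 in Propofol-control and 447 to 550 CPM in Propofol-sepsis livers. Of these, 6 were called higher and 1 lower under isoflurane (25.7% and 24.4% of all genes), and 2 higher and 1 lower under propofol (20.4% and 21.7%). Library 4, with the most Il1b and Il1a, also had the highest sum of Kupffer cell and macrophage markers. Summed endothelial markers were 263 to 322 and 199 to 245 CPM in the Isoflurane-control and Isoflurane-sepsis libraries, and 331 to 360 and 285 to 304 CPM in the Propofol-control and Propofol-sepsis libraries. Of 8 endothelial markers tested, 5 were called lower under isoflurane (24.4% of all genes), and 2 lower (21.7%) and 1 higher (20.4%) under propofol. The endothelial sum was thus lower in septic livers under both anesthetics, whereas Il1r1 was called lower under isoflurane alone and the TNF receptors under propofol alone, and its part in their levels was not tested. The 8 stellate cell and cholangiocyte markers summed to 128 to 141 CPM in Isoflurane-control and 142 to 188 CPM in Isoflurane-sepsis livers. Under propofol the ranges were 140 to 150 CPM in control and 140 to 192 CPM in septic livers. Of these markers, 4 were called higher and 1 lower under isoflurane (25.7% and 24.4% of all genes), and 1 higher and 1 lower under propofol (20.4% and 21.7%). The 11 lymphocyte markers summed to 12.5 to 26.2 CPM over all 16 libraries. Of 5 lymphocyte markers tested, 4 were called higher under isoflurane (25.7% of all genes) and 1 lower under propofol (21.7%).

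**Figure D5:**
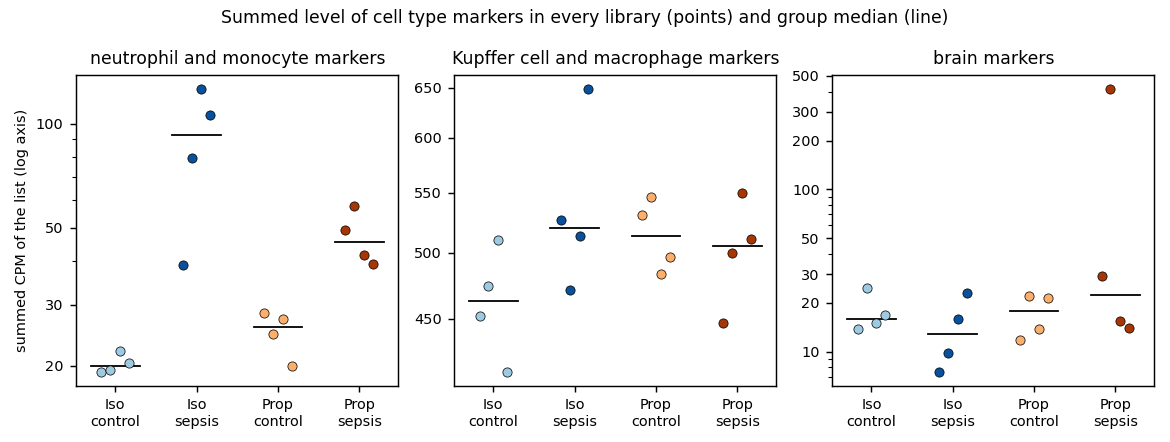
Summed CPM, on log axes, of markers of neutrophils and monocytes, of Kupffer cells and macrophages, and of brain in each library (points), with the group median as a line. The neutrophil and monocyte sums reach 126 in Isoflurane-sepsis livers, and library 10 stands alone at 417 for the brain markers.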

How the data were processed

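Liver RNA was pooled from 3 rats per library (4 libraries in each of 4 groups), selected for poly(A) and sequenced from 1 end by a strand-keeping protocol. The authors deposited raw counts, whole numbers of reads per gene symbol, without normalization. The submitters' processing notes name STAR and rn5. The counting program and annotation were not given in the sources used here. Lines naming no gene (no feature, 21.6% to 25.4% of reads; ambiguous, 1.07% to 1.35%) were left out. Groups came from the sample labels.

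Counts were tested with edgeR 4.0.16 (quasi-likelihood, TMM, filterByExpr with limits of 10 reads per library and 15 in all) in R 4.3.3, 4 libraries against 4, and over 16 for the interaction, signed isoflurane minus propofol. P-values were adjusted by Benjamini-Hochberg over all tested genes, and an adjusted p below 0.05 was called. The steps were tested on simulated data. Alternatives were RLE factors, library totals alone, DESeq2 1.42.0 (the tool of the study), no filter, a limit of 1 on the mean CPM, thinning to the smallest library total, 1 fit of all 16 libraries, and each library left out in turn.

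The 10 genes, the lists and the tests were chosen with earlier results of these data known. The genes named are all 10, the 2 called genes with the largest rise and fall of each pathway list and anesthetic, and the 3 genes most like Il1b, Il1rn and Il1r1 in pattern, among genes whose log2 CPM averaged 1 or more; Il36b and the genes called in the interaction were named after their values were seen. Of the 17055 symbols, 14175 were matched to RefSeq, which supplied the promoter windows. Depth was 14199422 to 49937173 reads on genes, and both counting error and the spread between pools limit Tnf and Il10.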

Additional observations from a re-analysis of the deposited data

Results flagged for a closer look

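In 52 groups of 4 libraries, 6 had a library farther from the others than Dixon's limit of 0.829 allows; chance flags about 1 in 20 such groups. Isoflurane-control library 7 had the lowest Il1rn of its group, at 145 CPM, and also the highest Il1r1, at 479 CPM. Isoflurane-control library 8 was the deepest, with 49937173 reads on genes. Isoflurane-sepsis library 1 had the lowest Tnfrsf1b, at 15.4 CPM, and Propofol-sepsis library 11 the highest Il1b, at 35.7 CPM. Propofol-sepsis library 9 had the lowest ratio of Il1r2 to Il1r1 reads, at 0.0132.

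The response to sepsis differed between the anesthetics by the interaction test for Il1rn (-0.67 on the log2 scale, isoflurane minus propofol), Il1r1 (-0.70) and Tnf (2.12). Those calls lay close to the limit. The call for Tnf is a description, since no Isoflurane-control library reached the count limit of the filter for it. With each library left out in turn, the calls for Il1rn, Il1r1 and Tnf were lost in 9, 13 and 11 of 16 cases, in that order.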

How the results depend on the processing

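Of 801 values of the 10 genes recomputed under the alternatives, 718 kept their direction and their side of the limit, 51 kept the direction and lost the call, 25 gained one, and 7 changed direction. No paired analysis was possible because the groups share no replicate numbers. With a library left out, 8 of the genes were called under isoflurane in each case and 7 to 8 under propofol, 25 to 30 and 22 to 28 of the pathway genes, and 6 to 7 genes between control livers. For the interaction the number called was 5 with DESeq2, 1 with no filter on low counts, and 0 to 6 with a library left out (pathway genes 0 to 8). Between septic livers it was 2 with RLE factors, 5 with library totals alone, 3 with DESeq2, 5 with all 16 libraries in 1 fit, and 1 to 4 with a library left out; the cause was not tested. Over all genes the interaction gave 850 calls with DESeq2, 168 with no filter and 54 to 1615 with a library left out, against 289. With all 16 libraries in 1 fit, 4099 genes were called between septic livers and 2793 between control livers, against 1982 and 4468. Library totals alone shifted the median of all genes by -0.15 between control and by -0.16 between septic livers.

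Directions changed for values that were not called. They were Tnfrsf1a under isoflurane without library 1 (0.038, range with a library left out -0.100 to 0.038), Il1rap under propofol with library totals alone (-0.022) and without library 10 (-0.028, range -0.028 to 0.079), Il1r2 in the interaction with thinned counts (0.20) and without library 14 (0.037, range -0.25 to 0.037), and Il1a in the interaction without library 4 (-0.11) and library 8 (-0.0074, range -0.11 to 0.19). The log2 ratio of Il1rn to Il1b reads under propofol was -0.017 without library 13 (range -0.017 to 0.21). That ratio stayed between -1.99 and -1.50 under isoflurane, and that of Il1r2 to Il1r1 between 2.32 and 2.50 and between 1.64 and 1.97. With thinned counts the interaction value of Tnf was 3.99. Depth limits Tnf and Il10, with 1 to 4 and 2 to 4 reads in the control libraries of one anesthetic.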
